A study of Homo sapiens with 10 samples.

Results

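The m6A readers are RNA-binding proteins that recognise or respond to N6-methyladenosine (m6A), the methyl mark on internal adenosines of mRNA, and 10 of them were followed here: YTHDF1, YTHDF2, YTHDF3, YTHDC1, YTHDC2, IGF2BP1, IGF2BP2, IGF2BP3, HNRNPA2B1 and HNRNPC. They were taken by name as known readers, with no value in the rule that selects them, although earlier results of these data were known when the list was drawn up, and all 10 were among the 61533 genes of the count tables. Their mRNAs were measured by RNA-seq in T24, a human bladder cancer cell line sensitive to cisplatin, and in T24R2, a resistant line derived from T24 by serial desensitization to the drug, with 5 libraries per line collected at day 3 of culture. The study concerned m6A in bladder cancer cells that differ in their response to cisplatin, and the readers are among the proteins through which the mark acts. No transgene, knockdown or other agent is named in the labels of either group, and both are listed in RPMI medium with serum. The methods describe T24R2 as kept in cisplatin, whereas the labels name no drug, so line and drug exposure cannot be told apart. T24R2 is a single derivative of T24, and nothing in the labels says that replicates were separate cultures, so that p-values measure only the spread between these libraries, which may be technical.

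Readers fall into several groups by how they meet the mark. Proteins with a YTH domain bind the methylated adenosine directly: YTHDF1, YTHDF2 and YTHDF3 act in the cytoplasm on translation and mRNA decay, YTHDC1 acts in the nucleus on splicing and export, and YTHDC2 is an RNA helicase best known from meiosis. The IGF2BP proteins, a family of oncofetal RNA-binding proteins with KH domains, stabilise their target mRNAs, and the nuclear ribonucleoproteins HNRNPA2B1 and HNRNPC bind RNA whose structure is opened by the methyl group. IGF2BP1 and IGF2BP3 are mostly silent in adult tissue and return in many tumours.

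Total counts were 9257843 to 10247941 in T24 and 9591379 to 10840954 in T24R2. The chi-square per degree of freedom between libraries of a line, which is 1 under sampling noise alone, was 2.01 to 7.03, and the highest value was that between T24R2 replicates 1 and 3. Scaling factors (TMM, which correct library size for composition) were 0.936 to 0.951 in T24 and 1.04 to 1.07 in T24R2. Of 13 markers of urothelium and epithelium, 8 passed the filter on low counts, and for all 8 every T24R2 library was below every T24 library. Over all genes that passed the filter, the libraries of the lines lay apart, in either direction, for 61.2%. The keratins KRT7, KRT8 and KRT18 were abundant in both lines, with KRT7 at 2242 CPM (counts scaled to library size) in T24 and 1370.0 CPM in T24R2, and GATA3, a urothelial transcription factor, went from 22.1 to 0.214 CPM. KRT19 and EPCAM were at 3 counts or fewer in every T24R2 library, and UPK1B, UPK3A and KRT20 were at that floor in both lines. The summed level of the marker list was 4942 to 5675 CPM in T24 and 3013 to 3217 CPM in T24R2, and its part in the reader results was not tested. Markers of leukocytes, endothelium and fibroblasts summed to 4.21 to 7.66 CPM in T24 and 0.983 to 2.88 CPM in T24R2, with 5 of the 8 at the floor in both lines.

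All 10 readers were expressed in both lines, with 223 to 9915 counts per library, and all passed the filter on low counts. Their mean CPM exceeded that of 54.3% of tested genes for IGF2BP3, the scarcest, and that of 99.3% for HNRNPA2B1, the most abundant. Between the lines, IGF2BP1 was called higher and IGF2BP2, HNRNPA2B1 and YTHDF1 were called lower in T24R2, whereas the remaining 6 were not called. A gene was called at an adjusted p-value under 0.05 (edgeR quasi-likelihood test, Benjamini-Hochberg adjustment over 16181 genes) with a log2 fold change of more than 0.5 in size. The share of readers called, 4 of 10, should be read against the 51.4% of all tested genes that were called, with 24.9% higher and 26.5% lower. Without the fold change minimum 7 readers were under the adjusted p threshold, against 75.5% of all genes, and with a minimum of 1 on the log2 scale 2 readers were called, against 26.0%. The 5 libraries of one line lay apart from the 5 of the other for 5 readers, against 61.2% of all genes. The median log2 fold change was -0.14 over the 10 readers and 0.01 over all tested genes. Scaling to library size alone moved the median of all genes to 0.18 and their calls from 4027 higher and 4282 lower to 5206 and 3431, and left IGF2BP1 and IGF2BP2 as the 2 readers called. In bulk samples, fewer cells of a type and less RNA per cell cannot be told apart.

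**Figure D1:**
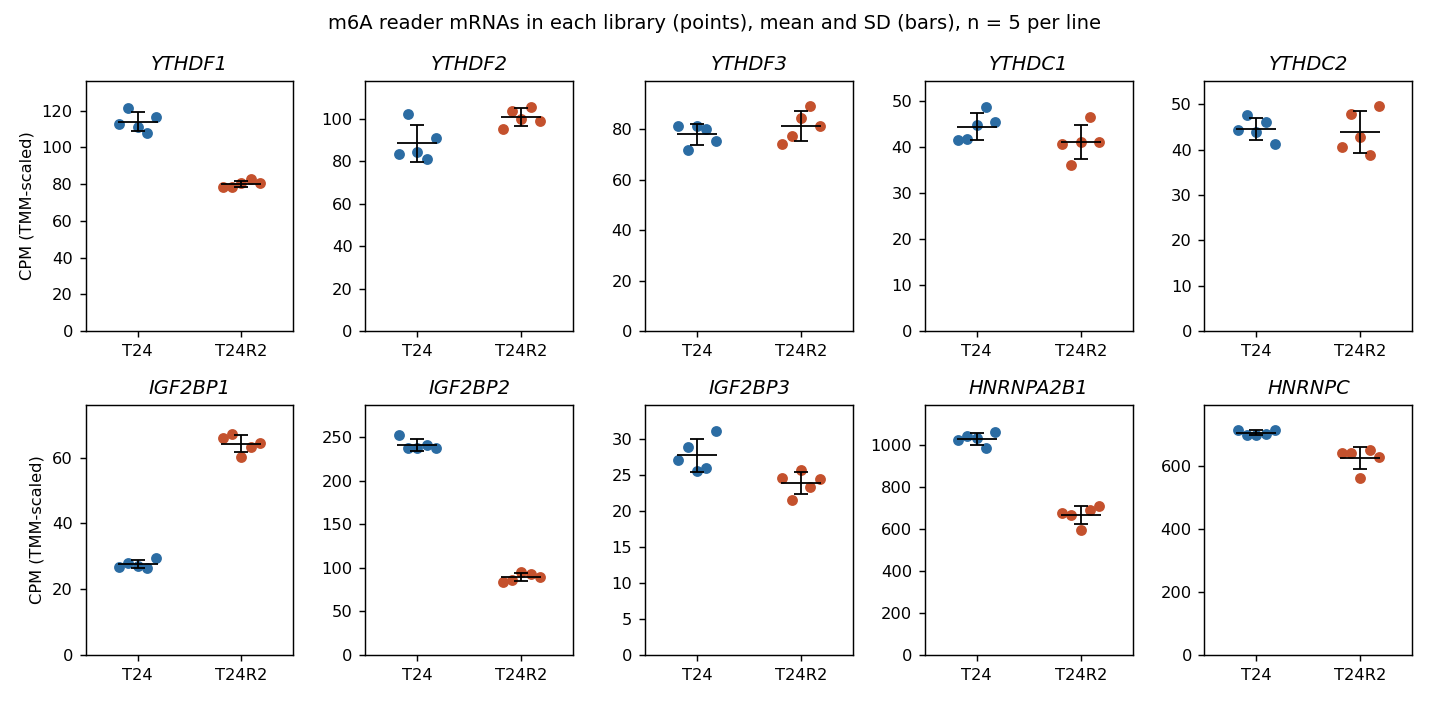
Level of each reader in CPM (vertical axis, from 0, TMM-scaled) in the 5 T24 and 5 T24R2 libraries; points are libraries and bars the mean and SD. IGF2BP1 is higher in all 5 T24R2 libraries, IGF2BP2, HNRNPA2B1, YTHDF1 and HNRNPC are lower in all 5, and the other 5 readers overlap between the lines.

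The IGF2BP family held both the largest rise and the largest fall among the readers. IGF2BP1 (ENSG00000159217.10, chr17:48997385-49056145 in hg38, plus strand), which binds the coding region of MYC mRNA and the localisation element of ACTB mRNA, was the one reader called higher. Its level was 26.8, 28.1, 27.1, 26.5 and 29.5 CPM in T24 replicates 1 to 5 and 66.0, 67.1, 60.3, 63.3 and 64.3 CPM in T24R2 replicates 1 to 5. The lowest T24R2 library was thus far above the highest T24 library, and the mean went from 27.6 ± 1.23 to 64.2 ± 2.64 CPM (SD, n = 5 per line). This was 2.33-fold higher, a log2 fold change of 1.22 (SE 0.07, adjusted p = 1.1e-19, edgeR), and the exact two-sided permutation test gave p = 0.00794, the smallest that 5 libraries against 5 allow. The size of this change exceeded that of 80.2% of tested genes.

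IGF2BP2 (ENSG00000073792.16, chr3:185643130-185825042, minus strand), the family member that is also found in adult tissue and is linked to metabolism, moved the other way. T24 libraries held 253, 237, 238, 241 and 237 CPM, and T24R2 libraries held 84.2, 85.6, 95.01, 92.9 and 89.9 CPM. The groups were widely separated, and the T24R2 mean of 89.5 ± 4.61 CPM was 37.1% of the T24 mean of 241 ± 6.63 CPM. The log2 fold change was -1.43 (SE 0.05, adjusted p = 8.6e-27, edgeR; exact permutation p = 0.00794), larger in size than that of 84.3% of tested genes.

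IGF2BP3 (ENSG00000136231.14, chr7:23310209-23470491, minus strand), known as a fetal and tumour antigen, changed least within its family. It had the lowest mean CPM of the readers over both lines together, though not in T24 alone. It stood at 27.1, 28.9, 25.5, 25.9 and 31.1 CPM in T24 and at 24.6, 21.5, 25.6, 23.3 and 24.5 CPM in T24R2. The ranges met at one library of each line, the mean log2 fold change was -0.22 (95% interval -0.39 to -0.05, adjusted p = 0.0202, edgeR), and the gene was not called because the change was under the fold minimum. Scaling to library size alone gave -0.05 (adjusted p = 0.572). Of its exon bases, 17.8% are shared with MALSU1, a mitochondrial ribosome factor on the opposite strand that held a mean of 302 counts against 258 for IGF2BP3. The library kit is not described as strand-specific, so fragments from the 2 genes cannot be told apart in the shared bases.

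The composition of the family differed accordingly. Expressed per kilobase of exon (RPKM, the CPM of a gene divided by the length of its merged exons in kilobases), the 3 IGF2BP mRNAs summed to 51.4 ± 1.16 RPKM in T24 and to 26.3 ± 0.698 RPKM in T24R2. IGF2BP2 made up 88.1% ± 0.822 of this sum in T24 and 63.9% ± 1.62 in T24R2, IGF2BP1 went from 5.57% ± 0.298 to 25.4% ± 1.69, and IGF2BP3 from 6.32% ± 0.544 to 10.7% ± 0.607 (SD, n = 5). Ratios within a library do not depend on library scaling. IGF2BP2 stood 15.8-fold above IGF2BP1 in T24 and 2.52-fold above it in T24R2, a difference of 2.65 in the log2 ratio (SE 0.07, exact permutation p = 0.00794, n = 5 per line). The ratio of IGF2BP1 to IGF2BP3 went from 0.884 to 2.38 and that of IGF2BP2 to IGF2BP3 from 14.0 to 6.01, each with an exact permutation p = 0.00794. These were 3 of the 8 ratios tested between related readers, of which 6 had libraries that lay apart between the lines. The libraries lay apart for 61.2% of single tested genes, and no such share was computed for ratios. Within a family of 3 the log2 ratios are not independent, since each is fixed by the others. With the length of the MANE Select transcript, the single reference transcript of a gene, in place of merged exons, IGF2BP3 held 9.83% of the family in T24 and 16.5% in T24R2, and the ratio of IGF2BP1 to IGF2BP3 was 0.485 and 1.31, while that of IGF2BP2 to IGF2BP3 was 8.71 and 3.74. The difference of a log2 ratio between the lines does not depend on length.

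**Figure D2:**
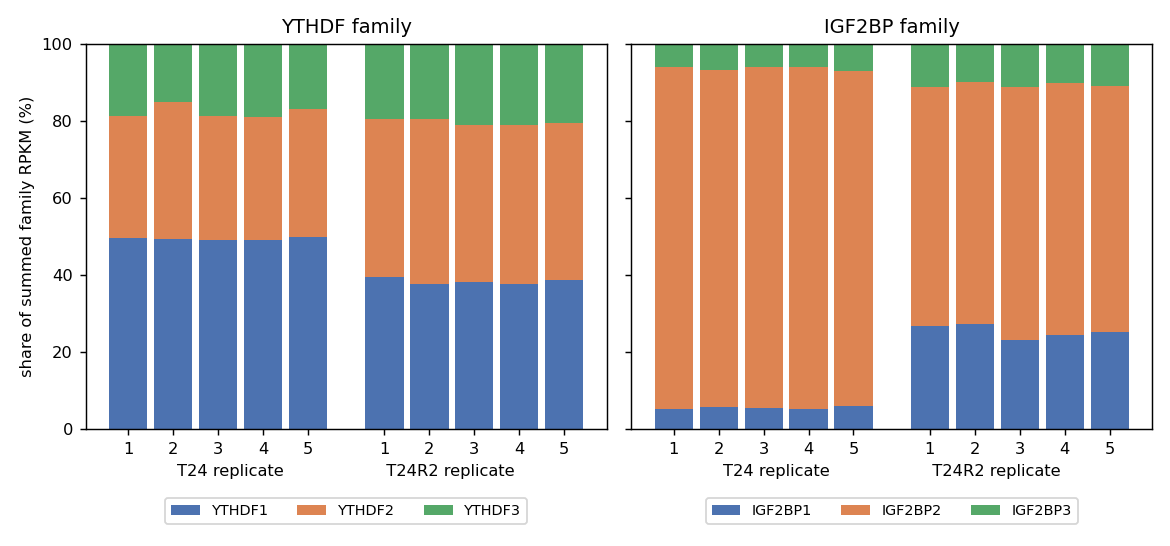
Share of the summed RPKM of the YTHDF family (left) and the IGF2BP family (right) held by each member, in percent (vertical axis), with 1 stacked bar per library. IGF2BP1 takes a mean of 5.57% of its family in T24 and 25.4% in T24R2, and YTHDF1 a mean of 49.5% and 38.4%.

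Among the cytoplasmic YTH proteins, the 3 mRNAs did not move alike. YTHDF1 (ENSG00000149658.18, chr20:63195429-63216139, minus strand), which promotes translation of methylated mRNA, was at 113, 122, 111, 108 and 117 CPM in T24 and at 78.4, 78.5, 80.7, 82.8 and 80.5 CPM in T24R2. Every T24R2 library was below every T24 library, but the log2 fold change of -0.51 (95% interval -0.61 to -0.41, adjusted p = 7.6e-12, edgeR) was so near the minimum of 0.5 that the call was lost when T24 replicate 2 was left out (-0.49), and likewise for replicate 1 (-0.496) and replicate 2 (-0.493) of T24R2. The call was also lost with library size scaling (-0.34). YTHDF2 (ENSG00000198492.16, chr1:28736621-28769775, plus strand), which recruits the CCR4-NOT deadenylase to methylated mRNA, was at 83.4, 102, 84.1, 81.0 and 91.0 CPM in T24 and at 94.9, 104, 99.8, 106 and 98.8 CPM in T24R2. Only T24 replicate 2 reached into the T24R2 range, and the log2 fold change of 0.19 (adjusted p = 0.00304, edgeR) was under the minimum. An antisense gene, ENSG00000289291, shares 24.7% of the exon bases of YTHDF2 at a mean of 144 counts, and with all of these counts taken off the value was 0.18. Library size scaling gave 0.35 (adjusted p = 6.3e-07, edgeR). YTHDF3 (ENSG00000185728.17, chr8:63168553-63212786, plus strand), which acts together with the other two, was at 81.4, 71.7, 81.2, 80.1 and 75.5 CPM in T24 and at 74.3, 77.5, 84.6, 89.3 and 81.5 CPM in T24R2. These libraries overlapped, and the 95% interval of its log2 fold change was -0.05 to 0.18, whereas library size scaling gave 0.23 (adjusted p = 5.5e-04, edgeR).

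Within the YTHDF family YTHDF1 held a smaller share in T24R2. In T24, YTHDF1 took 49.5% ± 0.269 of the summed RPKM and YTHDF2 32.9% ± 1.65, whereas in T24R2 YTHDF2 took 41.4% ± 0.875 and YTHDF1 38.4% ± 0.770, and YTHDF3 held 17.7% ± 1.67 and 20.3% ± 0.801 (SD, n = 5). The ratio of YTHDF1 to YTHDF2 was 1.39 to 1.57 over the T24 libraries and 0.879 to 0.962 over the T24R2 libraries, a difference of -0.70 in the log2 ratio (SE 0.04, exact permutation p = 0.00794, n = 5 per line). YTHDF1 to YTHDF3 went from 2.81 to 1.90 (exact permutation p = 0.00794). The ratio of YTHDF2 to YTHDF3 overlapped between the lines, at 1.87 and 2.04 (exact permutation p = 0.238), although without T24 replicate 2 its log2 difference was 0.21 instead of 0.13 (exact permutation p = 0.0476). The share of each member depends on the exon length used. With MANE Select lengths, YTHDF1 held 42.9% and YTHDF2 38.6% in T24, and 32.3% and 47.2% in T24R2. Which of the 2 led in T24R2 also depended on the antisense gene, since with all its counts taken off YTHDF2 (22.8 RPKM) the level of YTHDF1 (25.01 RPKM) was higher in 5 of 5 libraries, and the ratio of YTHDF1 to YTHDF2 was 1.63 to 1.89 over the T24 libraries and 1.03 to 1.16 over the T24R2 libraries. The difference in the log2 ratio was then -0.69 (exact permutation p = 0.00794).

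The YTHDC mRNAs showed no difference that these libraries could resolve. YTHDC1 (ENSG00000083896.13, chr4:68310387-68350090, minus strand) was at 41.5, 41.9, 44.8, 48.8 and 45.5 CPM in T24 and at 40.7, 36.2, 41.2, 46.7 and 41.2 CPM in T24R2, with a log2 fold change of -0.11 (95% interval -0.25 to 0.03, adjusted p = 0.157, edgeR). YTHDC2 (ENSG00000047188.16, chr5:113513694-113595285, plus strand) was at 44.2, 47.6, 43.9, 46.0 and 41.2 CPM in T24 and at 40.6, 47.8, 42.7, 38.8 and 49.6 CPM in T24R2, with a log2 fold change of -0.02 (95% interval -0.17 to 0.12, adjusted p = 0.774, edgeR). The libraries of both genes overlapped between the lines, and both values turned positive with library size scaling, to 0.05 and 0.14. The ratio of YTHDC1 to YTHDC2 was 1.53 in T24 and 1.44 in T24R2 (exact permutation p = 0.540).

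Of the nuclear ribonucleoproteins, HNRNPA2B1 fell and HNRNPC was not called. HNRNPA2B1 (ENSG00000122566.22, chr7:26171151-26201529, minus strand), which takes part in splicing, in sorting of RNA and in processing of primary microRNAs, was at 1022, 1043, 1032, 985 and 1059 CPM in T24 and at 677, 668, 595, 690.0 and 707 CPM in T24R2. All T24R2 libraries were below all T24 libraries, and the mean went from 1028 ± 27.6 to 667 ± 43.2 CPM, or 64.9% of T24 (log2 fold change -0.62, SE 0.04, adjusted p = 2.9e-16, edgeR; exact permutation p = 0.00794). It overlaps NFE2L3 over 9.57% and CBX3 over 2.92% of its exon bases, both on the opposite strand. NFE2L3, a transcription factor, fell from a mean of 1255 to 234 counts in the same comparison. With every count of both genes taken off, an upper limit of what they could add, the log2 fold change of HNRNPA2B1 was -0.42 (adjusted p = 3.7e-10, edgeR), which is under the fold minimum. Library size scaling gave -0.46, also under it.

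HNRNPC (ENSG00000092199.19, chr14:21209136-21269494, minus strand), which binds uridine tracts in nuclear pre-mRNA, was at 715, 699, 699, 704 and 716 CPM in T24 and at 643, 642, 564, 653 and 631 CPM in T24R2. No T24R2 library reached the T24 range with TMM scaling, yet the change was small, at a log2 fold change of -0.17 (95% interval -0.26 to -0.09, adjusted p = 3.0e-04, edgeR). T24R2 replicate 3 was the lowest library for both genes, and without it the values were -0.13 for HNRNPC and -0.58 for HNRNPA2B1. With library size scaling the value for HNRNPC was -0.01 (adjusted p = 0.832, edgeR). In TPM, which brings the counts per kilobase to the same sum in every library, its libraries overlapped between the lines. They ran from 288 to 304 in T24 and from 274 to 322 in T24R2, and the T24R2 mean was the higher (308 against 297). HNRNPA2B1 fell relative to HNRNPC within the libraries, from a ratio of 0.841 to 0.616 (exact permutation p = 0.00794, n = 5 per line). With the opposite-strand counts taken off the ratio went from 0.560 to 0.474, a log2 difference of -0.24 in place of -0.45 (exact permutation p = 0.00794). Processed pseudogenes named after HNRNPC, 9 in the tables, held 475 counts over all libraries, equal to 0.710% of those of HNRNPC itself, so that few counted fragments were assigned to these copies. Only uniquely mapped reads were kept, so fragments that match a copy equally well were dropped, and this share cannot show how many.

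**Figure D3:**
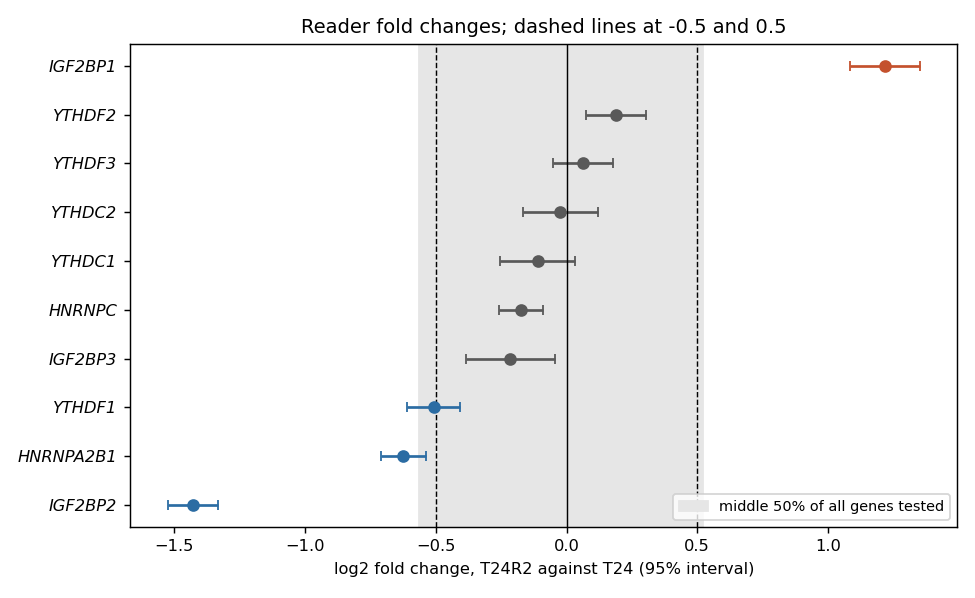
Log2 fold change of each reader in T24R2 against T24 (horizontal axis) with its 95% interval, 5 libraries per line; orange and blue points are called higher and lower, grey points are not called, and the grey band is the middle 50% of all tested genes. IGF2BP1 (1.22) and IGF2BP2 (-1.43) lie far outside the band, HNRNPA2B1 (-0.62) just outside it, and YTHDF1 (-0.51) lies inside the band and just past the dashed line.

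The order of the readers within a line was compared per kilobase of exon. In T24 it ran from HNRNPC at 96.9 ± 1.15 RPKM and HNRNPA2B1 at 81.5 ± 2.19 RPKM through IGF2BP2 (45.3 RPKM), YTHDF1 (35.6 RPKM), YTHDF2 (23.7 RPKM), YTHDF3 (12.7 RPKM), YTHDC1 (6.33 RPKM) and YTHDC2 (4.12 RPKM) to IGF2BP3 (3.25 RPKM) and IGF2BP1 (2.86 RPKM). IGF2BP3 and IGF2BP1 were the only neighbours in this order whose libraries overlapped, and the first reader stood 33.8-fold above the last. In T24R2, HNRNPC (85.9 RPKM) and HNRNPA2B1 (52.9 RPKM) still led and IGF2BP3 (2.80 RPKM) came last. YTHDF2 (27.0 RPKM) and YTHDF1 (25.01 RPKM), whose order turned with the antisense counts taken off, followed the leaders with overlapping libraries, IGF2BP2 came next at 16.8 RPKM, and IGF2BP1 stood at 6.66 RPKM, below YTHDF3 (13.2 RPKM), with libraries that overlapped those of YTHDC1 (5.86 RPKM). YTHDC2 was at 4.06 RPKM. IGF2BP2 thus went from rank 3 to rank 5 and IGF2BP1 from rank 10 to rank 7. An exact two-sided sign-flip test of the ratio of each pair of neighbours over the 5 libraries of a line cannot give a p-value below 0.0625, which was reached for every pair except IGF2BP1 and YTHDC1 in T24R2 (exact p = 0.125).

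The order depended on the length assigned to each gene, since merged exons run from 3206 bases for YTHDF1 to 12613 bases for HNRNPA2B1 and the latter has a MANE Select transcript of 3628 bases. With MANE Select lengths, HNRNPA2B1 led in T24 at 283 RPKM against 223 RPKM for HNRNPC, and in T24R2 the libraries of HNRNPC (198 RPKM) and HNRNPA2B1 (184 RPKM) overlapped. Neighbouring readers with overlapping libraries then numbered 3 in T24 and 4 in T24R2. The ranks of IGF2BP1 (10 and 7) and IGF2BP2 (3 and 5) were the same under both lengths.

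**Figure D4:**
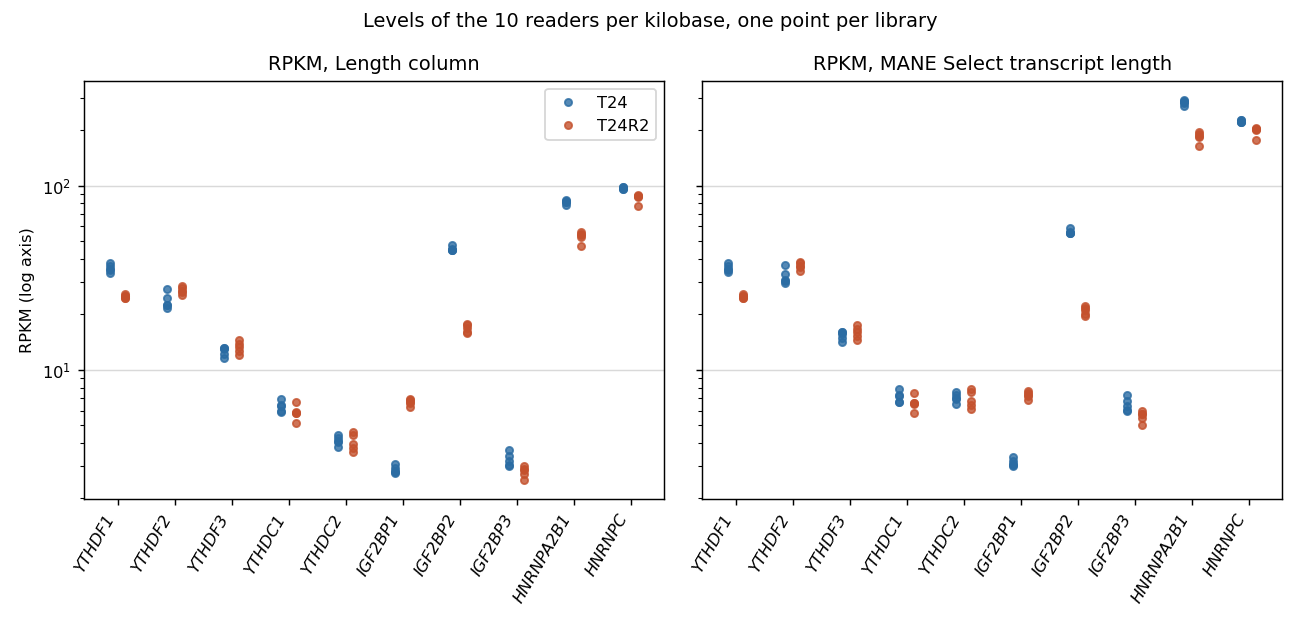
Reader levels in RPKM (vertical log axis), with 1 point per library, by merged exon length (left) and by MANE Select transcript length (right). IGF2BP2 falls from 45.3 to 16.8 RPKM and IGF2BP1 rises from 2.86 to 6.66 RPKM on the left, and HNRNPA2B1 lies below HNRNPC on the left but above it in T24 on the right.

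Neighbouring genes were described for each reader to show whether the chromosome segment around it moved as well. Around YTHDF1, near the end of chromosome 20, the 54 tested genes within 1 Mb had a median log2 fold change of -0.60, with 30 called lower and 2 higher, against 26.5% and 24.9% of all tested genes. Around HNRNPA2B1 on chromosome 7, the 21 genes within 1 Mb had a median of -0.73, with 13 called, all of them lower (26.5% over all genes), in a window that holds genes of the HOXA cluster. For the 10 nearest tested genes on each side that do not overlap the reader, which reach past 1 Mb at HNRNPA2B1, the medians were -0.64 and -0.27. At the other readers these medians were 0.23 (IGF2BP1), -0.33 (IGF2BP2), 0.14 (HNRNPC), -0.46 (YTHDF2), -0.24 (IGF2BP3), -0.06 (YTHDF3), -0.42 (YTHDC1) and -0.29 (YTHDC2). Except at IGF2BP1, the nearest genes of these readers also reach past 1 Mb. For the readers with the largest changes the medians within 1 Mb were nearer 0, at 0.10 over the 42 genes around IGF2BP1 and -0.13 over the 18 around IGF2BP2. Of these, 9 were called higher and 14 lower around IGF2BP1, and 2 higher and 6 lower around IGF2BP2. Among the 20 nearest genes, 4 were higher and 2 lower at IGF2BP1, and 2 higher and 8 lower at IGF2BP2. The shares over all tested genes were 24.9% higher and 26.5% lower. For HNRNPC (30 genes), YTHDF2 (31 genes) and IGF2BP3 (17 genes) the medians within 1 Mb were 0.14, -0.11 and -0.03, and YTHDF3, YTHDC1 and YTHDC2 had 5 tested genes or fewer in that window. The part of the neighbourhood in the change of any reader was not tested.

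**Figure D5:**
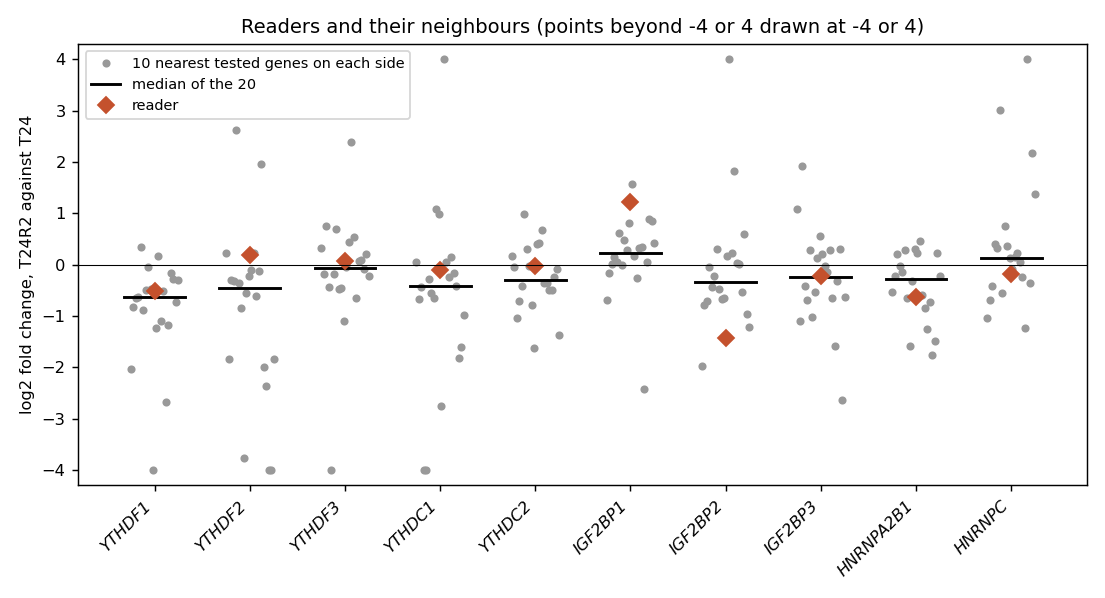
Log2 fold change in T24R2 against T24 (vertical axis) of each reader (diamond) and of the 10 nearest tested genes on each side (grey points, median as a bar); 9 of the 200 grey points lie beyond 4 or -4 and are drawn at that limit. YTHDF1 (-0.51) sits near the median of its neighbours (-0.64), whereas IGF2BP1 (1.22) and IGF2BP2 (-1.43) sit far from theirs (0.23 and -0.33).

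Among proteins that work with the readers (deadenylase, decay, splicing, export and stress granule factors), all 15 listed genes were tested, 1 was called higher, 1 was called lower and the median log2 fold change was 0.11, against 51.4% called and a median of 0.01 over all tested genes. NXF1, the mRNA export receptor that acts downstream of YTHDC1, rose by 0.87, and G3BP2, a stress granule protein, fell by 0.53 on the log2 scale. CNOT1, the scaffold of the deadenylase that YTHDF2 recruits, is named after its values were seen and went from 310 to 300 CPM (-0.05, not called). MATR3, named on the same terms, has 2 gene entries under its symbol. The entry tested held only 27 to 64 counts in T24 and 41 to 47 in T24R2, so the level of this gene is uncertain. With library size scaling 5 of these genes were called, all higher, against 5206 higher and 3431 lower of 16181 tested genes. G3BP2 was then at -0.37 and CNOT1 turned to 0.11. Of 9 further proteins proposed as readers, LRPPRC rose by 0.75 and FXR1, a relative of FMR1, fell by 0.87, and the other 7 were not called (median 0.02), against the same 51.4% of all genes called. Single members thus moved in opposite directions in both lists with TMM scaling.

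The wider HNRNP family gave 4 genes higher and 4 lower among 23 tested, against 24.9% and 26.5% over all genes, with a median of -0.04, and RALYL had 0 counts. HNRNPA3 (1.14), SYNCRIP (0.94) and HNRNPAB (0.81) rose most clearly, whereas RALY (-0.90, related to HNRNPC), HNRNPLL (-1.59) and HNRNPA1 (-0.51) fell. HNRNPM (0.54) and HNRNPD (-0.65) completed the called genes and are named here after their values were seen. HNRNPA3 and HNRNPA1 have many near-identical processed pseudogenes, so that their counts of uniquely mapped reads are uncertain. With library size scaling 5 were higher and 2 lower, against 5206 and 3431 of 16181 tested genes. HNRNPA1 (-0.35) and HNRNPD (-0.48) were then no longer called, and the median turned to 0.13. Calls thus went both ways in this list, as they did over all tested genes. Among the called genes HNRNPLL was scarce, at 18.4 CPM in T24 and 6.10 CPM in T24R2.

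Of 11 mRNAs known as IGF2BP clients, 8 were tested, 6 of them were called lower in T24R2 and 1 higher, against 26.5% and 24.9% of all tested genes, with a median log2 fold change of -1.13. HMGA2, a chromatin protein of embryonic and tumour cells, went from 195 to 18.04 CPM (-3.43), FSCN1, an actin-bundling protein, from 734 to 148 CPM (-2.32), and CD44, a cell-surface receptor, from 944 to 291 CPM (-1.70). SRF, a transcription factor of the actin system, rose by 0.64. ACTB (-0.56) and BTRC (-0.51) were also lower, and are named after their values were seen, as is MYC at 154 CPM in T24 and 161 CPM in T24R2 (0.07, not called). H19, a noncoding RNA that is named on the same terms, held 15 to 30 counts in T24 and at most 1 in T24R2, so it was at least 8.59-fold lower against a floor of 3 counts per library, and the median stayed at -1.13 with H19 at this bound. IGF2 itself, with 7 to 15 counts in T24 and 0 in T24R2, did not pass the filter, and LIN28B and MAPK4 had 0 counts. With library size scaling 4 of the 8 were called lower and 1 higher, against 3431 lower and 5206 higher of 16181 tested genes. ACTB (-0.40) and BTRC (-0.35) were then under the fold minimum. The list was put together with results of these data known, and its relation to the change of IGF2BP1 or IGF2BP2 was not tested.

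Of the 11 genes that write or erase m6A, 3 were called, all higher, against 24.9% of all tested genes, with a median log2 fold change of 0.10. CBLL1 (1.05), ZC3H13 (0.70) and WTAP (0.52), all accessory subunits of the methyltransferase complex, rose. The erasers FTO (-0.47) and ALKBH5 (-0.40) and the methyltransferase METTL3 (-0.24), named after their values were seen, had every T24R2 library below every T24 library but were under the fold minimum. Libraries lay apart, in either direction, for 61.2% of all tested genes. METTL3 was at -0.07 (adjusted p = 0.240, edgeR) with library size scaling. METTL16, a further methyltransferase named on the same terms, was higher by 0.49, also under the minimum, and was called with library size (0.65) and upper-quartile (0.56) scaling. The count of called genes ranged from 2 to 5 when single libraries were left out, with 5 without T24 replicate 4 or T24R2 replicate 3. Over all genes, 8398 to 8466 were called in these runs, with 16393 to 16467 tested. Among the list genes and markers named here, exons of CNOT1, G3BP2, LRPPRC, HNRNPA3, HNRNPAB, HNRNPD, HNRNPM, CD44, HMGA2, MYC, H19, IGF2, LIN28B, WTAP, ZC3H13, CBLL1, METTL3, FTO, ALKBH5, KRT7, KRT8 and KRT18 also overlap exons of opposite-strand genes, from 0.0942% of exon bases for G3BP2 to 17.1% for KRT18, so the limit given for HNRNPA2B1 holds for them too.

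Genes whose profile over the 10 libraries was most like that of a called reader were listed for the 3 with the largest changes, by Pearson's r of log2 CPM, as a description. FUT8 and FAM107B, both at 0.999, were closest to IGF2BP2, GNG11 and TCP1, both at 0.999, to IGF2BP1, and NACA (0.999) and LASP1 (0.996) to HNRNPA2B1. The points share the 2 lines, and 2076 to 2879 genes had an r over 0.95 with one of these readers, so that such values are common in these data.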

How the data were processed

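RNA-seq was analysed in 10 libraries, 5 of T24 and 5 of T24R2; MeRIP-seq was not analysed here. The authors used STAR 2.7.0 and samtools 1.10 to obtain unique, deduplicated alignments on hg38, and deposited raw counts of fragments per gene from featureCounts 2.0.1 on GENCODE release 39, with strand option 1 although the kit is not described as strand-specific. Of 61533 genes, 61369 matched a symbol. T24R2 was compared with T24 on these counts with edgeR 4.0.16 (filterByExpr, 16181 genes, TMM, glmQLFTest) in R 4.3.3, with the thresholds of the study; the biological coefficient of variation was 6.61%. CPM used TMM-scaled library sizes, and RPKM the length column of the tables or, as an alternative chosen after seeing the data, MANE Select transcripts of GENCODE. No interval from counting alone is given. Alternatives used library size or upper-quartile scaling, limma-voom (limma 3.58.1), DESeq2 1.42.0 alone or shrunk by its normal prior or by apeglm 1.24.0, other filters and thresholds, a replicate block, opposite-strand counts taken off and each library left out. The fits were tested on simulated data. The members and lists were chosen with earlier results of these data known. Named genes are the readers, up to 3 called genes per list and direction with the smallest adjusted p, opposite-strand genes sharing exon bases, and the 2 most similar profiles for 3 readers. CNOT1, MATR3, H19, MYC, ACTB, BTRC, HNRNPM, HNRNPD, FTO, ALKBH5, METTL3 and METTL16, list genes without enough counts, and markers other than the 3 with the smallest adjusted p were named after their values were seen. The result of a gene first placed on the list of IGF2BP clients is not reported here, and the list was computed without it.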

Additional observations from a re-analysis of the deposited data

Results flagged for a closer look

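The level of each reader was checked for a library far from the other 4 of its line, and 2 of 20 groups were marked (gap over range above 0.71), where chance gives about 1. IGF2BP2 was at 252.939 CPM in T24 replicate 1 and at 237.396 to 240.926 CPM in the other T24 libraries. HNRNPC was at 563.561 CPM in T24R2 replicate 3 and at 630.992 to 652.566 CPM in the other T24R2 libraries.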

How the results depend on the processing

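IGF2BP1 (1.20 to 1.38) and IGF2BP2 (-1.45 to -1.27) kept their direction and call under every alternative run. With library size alone, where the median of all genes is 0.18, 2 readers were called (1 lower), YTHDF1 was at -0.34, HNRNPA2B1 at -0.46, YTHDC1 at 0.053 and YTHDC2 at 0.14, 5 reader partners were called, and all genes split into 5206 higher and 3431 lower, against 4027 and 4282. Upper-quartile scaling gave YTHDF1 -0.43 and YTHDC2 0.051. With a mean of at least 100 counts, fewer genes were tested and 4991 were called (2350 higher, 2641 lower), with YTHDF1 at -0.48 and YTHDC2 at 0.0069. With no fold minimum 7 readers were called (2 higher, 5 lower), against 75.5% of all genes. With a minimum of 1 they were 2 (1 lower), against 26.0% of all genes. With opposite-strand counts taken off, HNRNPA2B1 was at -0.42 and its log2 ratio to HNRNPC at -0.24; this could not be done for IGF2BP3, which has fewer counts than MALSU1. The cause of these shifts was not tested otherwise.

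Leaving out single libraries gave 3 to 4 readers called (2 to 3 lower), YTHDF1 at -0.53 to -0.49, YTHDC2 at -0.065 to 0.024, 2 to 5 writers and erasers and 1 to 2 reader partners. Over all genes, 8398 to 8466 were called in these runs, with 16393 to 16467 tested. Neighbours in the order with overlapping libraries then numbered 0 to 1 in T24 and 0 to 2 in T24R2, and by CPM they numbered 3 and 5, by MANE length 3 and 4, and with opposite-strand counts taken off (also added after seeing the data) 1 and 1. The log2 ratio of YTHDF2 to YTHDF3 ranged from 0.091 to 0.21 and was past the threshold without T24 replicate 2 (0.21).

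Same-numbered libraries did not deviate together (correlations -0.02 to 0.02, and 1 of 5 T24 libraries matched its own number best). The replicate block gave 8240 called genes and the same 4 readers. For the ratios it allows no p below 0.0625, which YTHDF1 to YTHDF2 (-0.70), YTHDF1 to YTHDF3 (-0.57), IGF2BP1 to IGF2BP2 (2.65), IGF2BP1 to IGF2BP3 (1.43), IGF2BP2 to IGF2BP3 (-1.22) and HNRNPA2B1 to HNRNPC (-0.45) reached.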
